A study of Mus musculus with 9 samples.

Results

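The genes described here are the enzymes that remove superoxide and hydrogen peroxide, together with NRF2 and 2 of its target genes: the superoxide dismutases Sod1, Sod2 and Sod3, the catalase Cat, the peroxiredoxins Prdx1, Prdx3 and Prdx5, the transcription factor gene Nfe2l2, which encodes NRF2, and the genes Nqo1 and Hmox1. They were taken by name: every non-control probe whose accession belongs to any of these 10 symbols was used, which gave 11 probes out of 41174. Nfe2l2 had 2 probes and each other gene had 1. All 11 were well above background on all 9 arrays, so all 10 genes are among the 27774 genes that could be tested. The study set hearts of 4 RORasg/sg mice against hearts of 5 WT mice on single-colour Agilent mouse arrays, 1 array for each heart. RORasg/sg mice are homozygous for the staggerer allele of Rora, a deletion within the gene of the nuclear receptor RORα that is present in every tissue of the animal. Both groups were untreated male C57BL/6 mice aged 3 to 4 months that were weaned at 3 weeks onto a normal NIH31 diet. The RNA came from heart tissue with its mixture of cell types.

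Superoxide escapes from the mitochondrial respiratory chain and is made by oxidases. Superoxide dismutases turn it into hydrogen peroxide, which catalase and the peroxiredoxins break down, the peroxiredoxins with electrons that mostly come from thioredoxin. NRF2 is held at a low level by KEAP1 in unstressed cells, and when it accumulates it binds antioxidant response elements in genes such as Nqo1 and Hmox1 together with a small MAF protein, where BACH1 competes for the same elements. RORα binds DNA at its own response elements. SOD2 and PRDX3 work in the mitochondrial matrix, and heart muscle is rich in mitochondria.

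The promoter letters of these genes show where an antioxidant response element core stands near a start site. RefSeq windows (GRCm38.p6) that cover 250 bases before to 50 bases after the start were at hand for 8 of the 10 genes, all except Sod3 and Hmox1. The core TGACNNNGC, searched on both strands, was found in 3 of the 8 windows and in 12.4% of the 32851 mouse windows of that length. The 3 stretches are printed below 5′ to 3′ on the strand of the gene, with the core in capitals.
Sod1: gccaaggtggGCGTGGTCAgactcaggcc
Prdx1: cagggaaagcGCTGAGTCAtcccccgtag
Nfe2l2: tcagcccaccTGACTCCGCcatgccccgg
The Sod1 stretch is chr16:90220696-90220724 on the plus strand, and its core reads on the opposite strand at bases -56 to -48 from the start. The Prdx1 stretch is chr4:116685456-116685484 on the plus strand, and its core also reads on the opposite strand, at bases -133 to -125. The Nfe2l2 stretch is chr2:75704885-75704913 on the minus strand, with the core on the strand of the gene at bases -240 to -232. The Prdx1 core overlaps an AP-1 core, TGACTCA, which occurs in 5.2% of all windows. The core of the ROR response element, TAGGTCA, stood in 0 of the 8 windows and in 2.61% of all windows. These are matches of letters within short windows, and binding was not measured.

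Brightness varied between arrays. Processed signals reached a 75th percentile of 264 to 773 in RORasg/sg hearts and of 436 to 684 in WT hearts, and with a line at 500 RORasg/sg 1 and 4 WT hearts were brighter and RORasg/sg 2 to 4 and WT 4 were dimmer. All values below are log2 of the processed signal minus the 75th percentile of that array, a scale on which 0 is the level of the 75th percentile spot and on which levels of different genes are not compared. The median difference over all 27774 genes, RORasg/sg minus WT, was 0.41 on this scale, 0.34 when arrays were scaled to their medians, 0.3 after quantile normalization and -0.17 without scaling. Of the 3 Rora probes, both bright ones were lower in each RORasg/sg heart than in any WT heart (log2 differences of -4.13 ± 0.613 and -5.34 ± 0.824, SE, limma adjusted p = 0.296 for each), and the other, dim one overlapped between the groups. In these 2 bright probes, in that order, RORasg/sg hearts 1 to 4 had 0.08, -2.71, -1.01 and -1.99, and 0.25, -3.08, -2.19 and -4.43. WT 4 had 1.51 and 1.56, where the other WT hearts had 2.87 to 3.29 and 3.31 to 3.4. The cardiomyocyte markers, 12 of 12 measured, summed to 653 to 1300 times the 75th percentile in RORasg/sg hearts and to 1010 to 1270 times in WT hearts. Their mean log2 level was 6.11, 6.05, 4.64 and 4.65 in RORasg/sg hearts 1 to 4 and lay between 6.07 and 6.3 in WT hearts. RORasg/sg 3 and 4 were far below the WT hearts, and RORasg/sg 2 was just below them. Endothelial markers (8 of 8 measured) had a mean log2 level of 1.48, 0.27, -0.76 and -1.06 in RORasg/sg hearts 1 to 4 and of 0.46 to 1.13 in WT hearts, with a median difference of -1.25 and 5 of 8 lower, although they summed to 25.6 to 66.2 times in RORasg/sg hearts and 23.8 to 41.4 times in WT hearts. Red cell markers (6 of 10 measured) had a mean log2 level of 0.22, -0.95, -1.02 and -1.06 in RORasg/sg hearts 1 to 4 and of -0.41 to 0.12 in WT hearts, and summed to 27.5 to 65.7 times in RORasg/sg hearts and 24.6 to 57.9 times in WT hearts. Of these 6 markers, 4 had a higher mean in RORasg/sg hearts, and the median difference was 0.36. Fibroblast markers (8 of 8) had mean log2 levels of 2.18 to 3.31 in RORasg/sg hearts and 1.76 to 2.53 in WT hearts, and smooth muscle markers (5 of 5) of 1.63 to 2.86 in RORasg/sg hearts and 1.87 to 2.65 in WT hearts. Of the 12 cardiomyocyte markers, 10 had a lower and 2 a higher mean in RORasg/sg hearts, from -2.74 for Myh6 to 0.61 for Atp2a2. Markers of 1 cell type thus did not move together. In heart tissue, fewer cells of a type, less RNA per cell and effects of array brightness cannot be told apart here.

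None of the 10 genes passed the test between the groups (0 of 10 at a limma adjusted p under 0.05). The background was 0.0036% of all genes, which is 1 gene of 27774. At an unadjusted p under 0.05 there were 2 of 10, Nqo1 and Prdx3, both lower in RORasg/sg hearts, where 6.62% of all genes were lower and 4.94% were higher at that level. The values of RORasg/sg and WT hearts overlapped for all 10 genes, and 2.83% of all genes had no overlap. The mean was higher in RORasg/sg hearts for 4 genes (Sod2, Sod3, Cat and Nfe2l2) and lower for 6 (Sod1, the 3 peroxiredoxins, Nqo1 and Hmox1), and their median difference was -0.46 beside 0.41 over all genes. Relative to that median of all genes, 2 genes lay above it (Sod3 and Cat) and 8 below. The count of calls depended on the arrays used. Without RORasg/sg 1, 4 of the 10 genes passed, with Sod2 and Cat higher and Prdx3 and Prdx5 lower, where 28.5% of all genes were called higher, 8.89% lower and 37.4% in either direction. Among the 5 brighter arrays, RORasg/sg 1 is the lone RORasg/sg heart, and a fit there takes its spread from WT hearts alone. That fit called 2 of the 10, with Prdx5 higher and Cat lower, where 1.29% of all genes were called higher, 2.99% lower and 4.28% in either direction. Since RORasg/sg hearts had the larger SD in 86.1% of genes, these calls describe 1 heart against WT hearts and not the group, and differences among the brighter arrays are given below without p-values. The same holds for the 4 dimmer arrays, where WT 4 is the lone WT heart. With weights estimated for each array, 6 of the 10 passed, with 2 higher and 4 lower, where 37.8% of all genes were called higher, 16.7% lower and 54.5% in either direction.

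**Figure D1:**
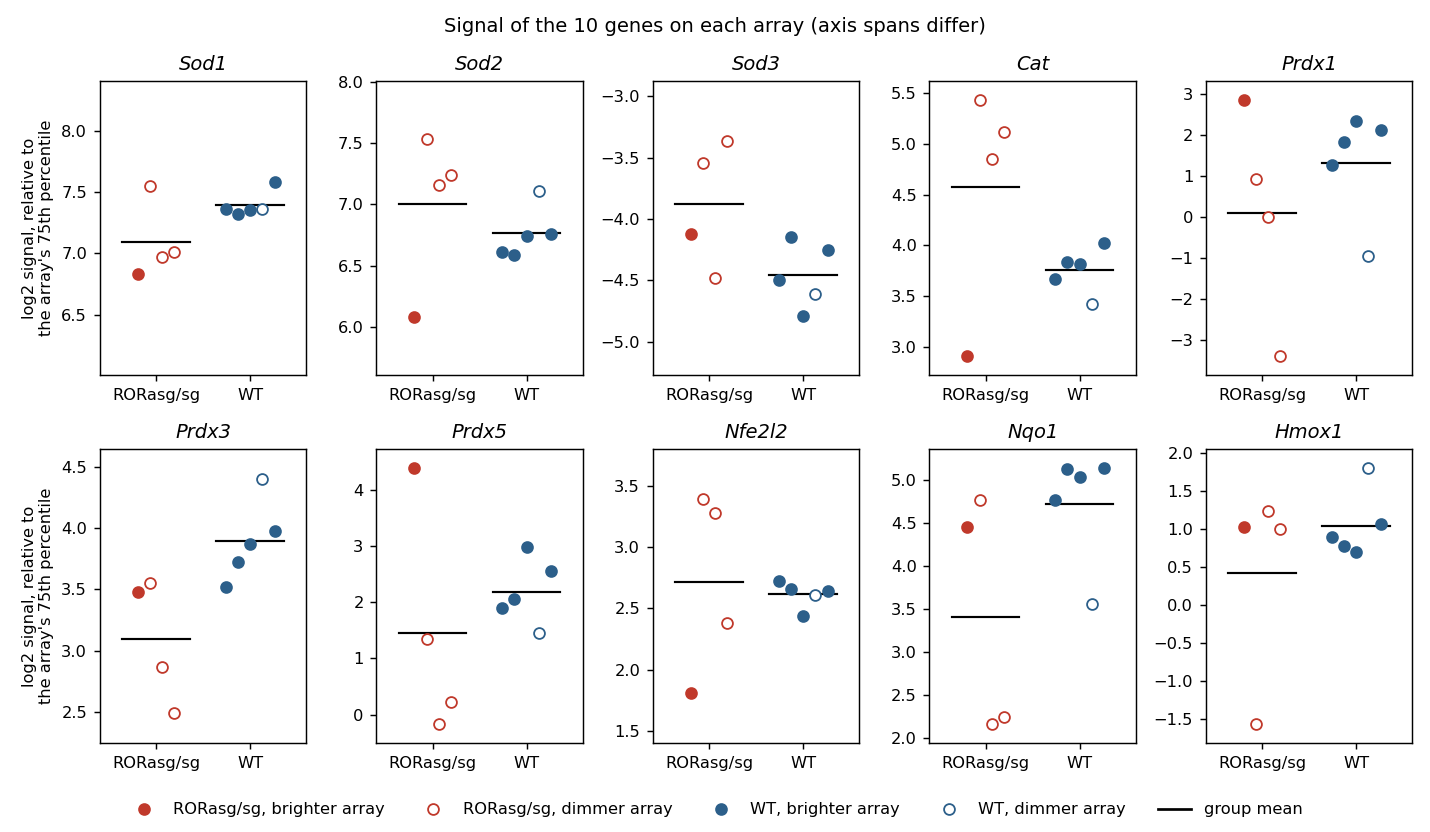
Scaled log2 signal (vertical axis, each array's 75th percentile at 0) of the 10 genes, 1 panel for each gene, with RORasg/sg hearts on the left and WT hearts on the right; each point is 1 array and the lines mark group means. The spread among the 4 RORasg/sg points is wider than among the 5 WT points in all 10 panels.

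None of the 3 superoxide dismutases passed the test, with differences of -0.31 for Sod1, 0.24 for Sod2 and 0.59 for Sod3. Sod1, the copper and zinc enzyme of the cytosol (probe A_51_P367381), had 6.83, 7.55, 6.97 and 7.01 in RORasg/sg hearts 1 to 4, against 7.36, 7.32, 7.35, 7.36 and 7.58 in WT hearts 1 to 5. RORasg/sg 1, 3 and 4 lay below every WT heart, and RORasg/sg 2 lay just under the highest WT heart. The difference was -0.31 (SE 0.209, 95% interval -0.764 to 0.149, limma adjusted p = 0.432), or 0.808 times the WT level. WT hearts agreed closely in Sod1: their SD of 0.105 stood at percentile 1.1 of all genes.

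Sod2, the manganese enzyme of the mitochondrial matrix (probe A_51_P172573), had 6.08, 7.53, 7.16 and 7.24 in RORasg/sg hearts 1 to 4. WT hearts 1 to 5 had 6.61, 6.59, 6.74, 7.11 and 6.76. RORasg/sg 1 was the lowest of the 9 hearts and the other RORasg/sg hearts were the 3 highest. The difference over all hearts was 0.24 (SE 0.295, 95% interval -0.401 to 0.886, limma adjusted p = 0.615). Without RORasg/sg 1 it was 0.55 (adjusted p = 0.0305), in a fit where the median of all genes was 0.68. Among the 5 brighter arrays it was -0.6. With quantile normalization the difference over all hearts was -0.17 and with no scaling -0.33, so the direction for Sod2 turned with the scaling.

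Sod3, the secreted enzyme that binds to the extracellular matrix (probe A_51_P342969), gave a dim signal, with processed values of 17.6 to 44.6 in RORasg/sg hearts and 17.8 to 36.2 in WT hearts. On the scaled log2 axis it had -4.12, -3.54, -4.48 and -3.36 in RORasg/sg hearts 1 to 4, against -4.5, -4.15, -4.79, -4.61 and -4.25 in WT hearts 1 to 5. RORasg/sg 1, 2 and 4 lay above every WT heart and RORasg/sg 3 lay inside the WT range. The difference was 0.59 (SE 0.424, 95% interval -0.33 to 1.51, limma adjusted p = 0.445), which is 0.18 above the median of all genes. With no scaling it was 0.02.

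Catalase split the RORasg/sg hearts. Cat, whose product breaks down hydrogen peroxide in peroxisomes (probe A_52_P679769), had 2.91, 5.43, 4.85 and 5.12 in RORasg/sg hearts 1 to 4, against 3.67, 3.84, 3.82, 3.42 and 4.02 in WT hearts 1 to 5. RORasg/sg 1 was below all WT hearts and RORasg/sg 2, 3 and 4 were above all of them. The mean was 4.58 ± 1.14 in RORasg/sg hearts (SD, n = 4) and 3.76 ± 0.224 in WT hearts (SD, n = 5). The difference was 0.82 (SE 0.481, 95% interval -0.23 to 1.87, limma adjusted p = 0.419). Without RORasg/sg 1 it was 1.38 (adjusted p = 0.0082), and among the 5 brighter arrays it was -0.93. WT 4, the dimmer WT array, had the lowest WT value, and among the 4 dimmer arrays the difference was 1.71. With brightness as a covariate over all arrays it was 0.1 (adjusted p = 1).

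Peroxiredoxins had lower means in RORasg/sg hearts, with a wide range between hearts. Prdx1, the main peroxiredoxin of the cytosol (probe A_51_P353183), had processed signals of 5560, 562, 390 and 25.3 in RORasg/sg hearts 1 to 4. In WT hearts 1 to 5 the signals were 1640, 2270, 3220, 227 and 2380. On the scaled log2 axis these were 2.85, 0.94, 0 and -3.39 in RORasg/sg hearts, against 1.26, 1.82, 2.35, -0.94 and 2.12 in WT hearts. RORasg/sg 1 was the highest heart, RORasg/sg 4 was the lowest, and WT 4 was far below the other WT hearts. The SD of Prdx1 was 2.61 in RORasg/sg hearts, at percentile 97 of all genes, and 1.33 in WT hearts, at percentile 94. The difference was -1.22 (SE 1.08, 95% interval -3.57 to 1.13, limma adjusted p = 0.503). It was -2.14 without RORasg/sg 1 (adjusted p = 0.126), and among the 4 dimmer arrays, which include WT 4, it was 0.13. Without RORasg/sg 4, and with the high RORasg/sg 1 kept, the Prdx1 difference was -0.06 (limma adjusted p = 0.98). Without WT 4 it was -1.79 (limma adjusted p = 0.327). The size of the Prdx1 difference thus depended on which hearts were kept.

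Prdx3, the peroxiredoxin of the mitochondrial matrix (probe A_51_P100828), had 3.48, 3.55, 2.87 and 2.49 in RORasg/sg hearts 1 to 4, against 3.52, 3.72, 3.87, 4.4 and 3.98 in WT hearts 1 to 5. RORasg/sg 1, 3 and 4 were below every WT heart and RORasg/sg 2 exceeded the lowest WT heart by a small margin. The difference was -0.8 (SE 0.368, unadjusted p = 0.04999, limma adjusted p = 0.418), or 0.573 times the WT level. It was -0.93 without RORasg/sg 1 (adjusted p = 0.0492) and -0.3 among the 5 brighter arrays. The 2 lowest hearts in Prdx3, RORasg/sg 3 and 4, had mean log2 levels of cardiomyocyte, endothelial and red cell markers below every WT heart. The same was so in RORasg/sg 2, which lay within the WT range in Prdx3, although its cardiomyocyte mean was lower by a small margin. The part of those markers in the Prdx3 difference was not tested.

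Prdx5, a peroxiredoxin found in mitochondria, peroxisomes and the cytosol (probe A_51_P174591), had 4.39, 1.34, -0.17 and 0.23 in RORasg/sg hearts 1 to 4. WT hearts 1 to 5 had 1.89, 2.06, 2.98, 1.46 and 2.55. RORasg/sg 1 was above all WT hearts and RORasg/sg 2 to 4 were below all of them, the opposite order to Cat and Sod2. The difference was -0.74 (SE 0.807, 95% interval -2.5 to 1.02, limma adjusted p = 0.576). Without RORasg/sg 1 it was -1.72 (adjusted p = 0.0247), and among the 5 brighter arrays it was 2.02.

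**Figure D2:**
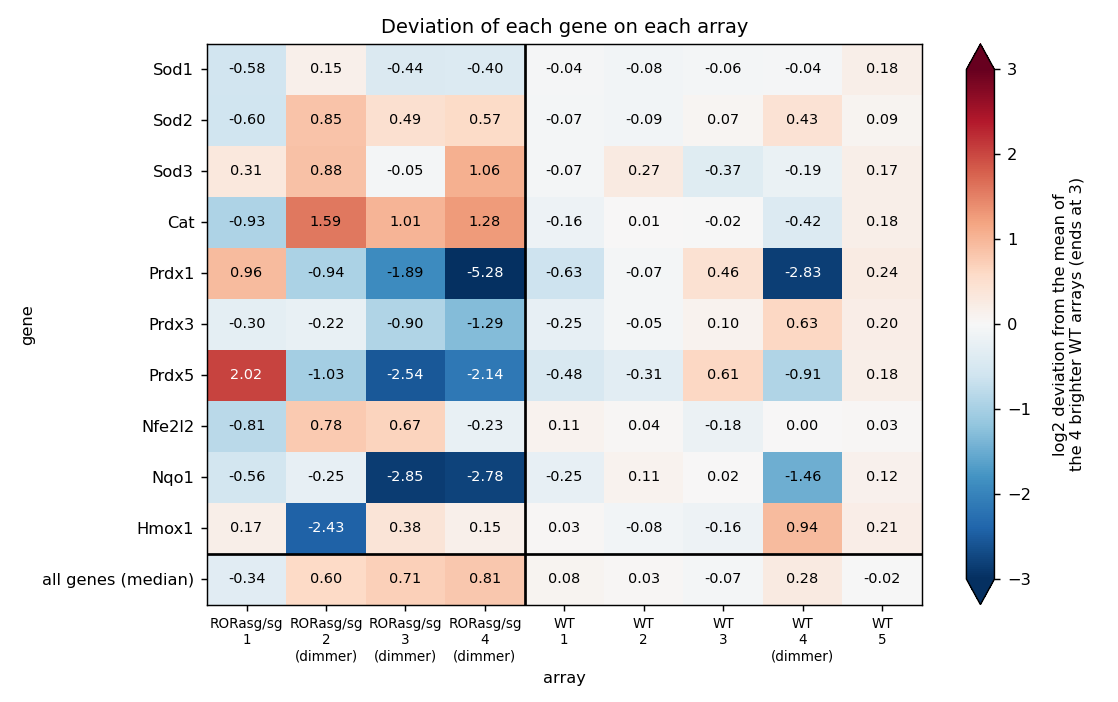
Log2 deviation of each gene (rows) on each array (columns, RORasg/sg hearts left of the line and WT hearts right of it) from the mean of the 4 brighter WT arrays, with the median over all genes in the bottom row; colours end at 3 and the number in each cell is the value. Cat reads -0.93 in RORasg/sg 1 and 1.59, 1.01 and 1.28 in RORasg/sg 2 to 4, while Prdx5 reads 2.02 and then -1.03, -2.54 and -2.14.

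The NRF2 gene itself had nearly equal group means. Nfe2l2 (probe A_51_P411271) had 1.81, 3.39, 3.28 and 2.38 in RORasg/sg hearts 1 to 4, against 2.72, 2.66, 2.44, 2.61 and 2.64 in WT hearts 1 to 5. RORasg/sg 2 and 3 were above every WT heart and RORasg/sg 1 and 4 were below every one. The second probe (A_52_P396436) had 1.65, 2.79, 2.89 and 1.87 in RORasg/sg hearts, against 2.08, 2.39, 2.12, 1.96 and 2.46 in WT hearts, with the same 2 hearts above and the same 2 below. The difference was 0.1 in both probes (SE 0.414 and 0.405, limma adjusted p = 0.885 and 0.89 over all probes, of which 0.00275% were called). WT hearts spread by an SD of 0.106 in the first probe, at percentile 1.14 of all genes, while the SD in RORasg/sg hearts was 0.757. The direction turned with the scaling, since the difference was -0.09 with quantile normalization and -0.47 with no scaling.

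Nqo1, the quinone reductase that is a standard readout of NRF2 activity (probe A_51_P424338), had the largest mean difference of the 10 genes. It had 4.45, 4.77, 2.16 and 2.24 in RORasg/sg hearts 1 to 4, against 4.77, 5.13, 5.04, 3.56 and 5.14 in WT hearts 1 to 5. RORasg/sg 3 and 4 were below every WT heart, RORasg/sg 1 and 2 lay within the WT range, and WT 4 stood apart below the other WT hearts. The difference was -1.32 (SE 0.604, unadjusted p = 0.04966, limma adjusted p = 0.418), or 0.401 times the WT level. It was -0.56 among the 5 brighter arrays and -0.5 among the 4 dimmer arrays. The 2 low hearts are again RORasg/sg 3 and 4. Their mean log2 levels of cardiomyocyte, endothelial and red cell markers were below every WT heart, and so were those of RORasg/sg 2. Of the 6 red cell markers, 4 had a higher mean in RORasg/sg hearts. The part of all these markers in the Nqo1 difference was not tested.

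Hmox1, the inducible heme oxygenase (probe A_51_P263965), had 1.03, -1.57, 1.24 and 1 in RORasg/sg hearts 1 to 4, against 0.89, 0.77, 0.7, 1.8 and 1.06 in WT hearts 1 to 5. RORasg/sg 2 alone was below the WT range, and the other RORasg/sg hearts lay inside it. The difference was -0.62 (SE 0.604, 95% interval -1.94 to 0.69, limma adjusted p = 0.536). Without RORasg/sg 2 it was 0.04 (adjusted p = 0.957), so the lower mean rested on that heart.

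**Figure D3:**
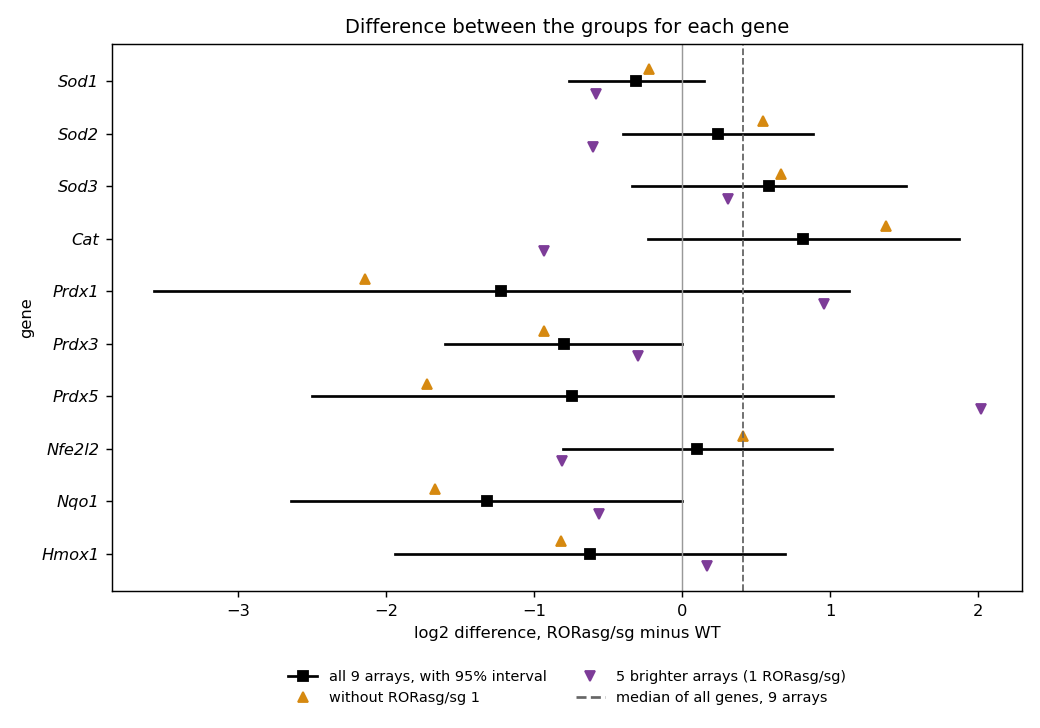
Log2 difference, RORasg/sg minus WT (horizontal axis), of each gene over all 9 arrays (squares, with 95% intervals), without RORasg/sg 1 (triangles pointing up) and among the 5 brighter arrays (triangles pointing down); the dashed line is the median over all genes at 0.41. The 2 kinds of triangle lie on opposite sides of 0 for Sod2, Cat, Prdx1, Prdx5, Nfe2l2 and Hmox1.

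Most arrays shared a slide with the other group, which allowed the differences to be taken with slide as a block and within slides. With the block they were -0.26 for Sod1, 0.24 for Sod2, 0.64 for Sod3, 0.89 for Cat, -1.02 for Prdx1, -0.78 for Prdx3, -0.65 for Prdx5, 0.11 for Nfe2l2, -1.22 for Nqo1 and -0.62 for Hmox1, and 0 of the 10 passed. Within slide 1 (hearts 1 and 2 of each group) the enzymes gave -0.15 for Sod1, 0.21 for Sod2, 0.5 for Sod3, 0.41 for Cat, 0.36 for Prdx1, -0.11 for Prdx3 and 0.89 for Prdx5, and the NRF2 genes gave -0.09 for Nfe2l2, -0.34 for Nqo1 and -1.1 for Hmox1. Within slide 2 (hearts 3 and 4 of each group) the enzymes gave -0.37 for Sod1, 0.28 for Sod2, 0.78 for Sod3, 1.36 for Cat, -2.4 for Prdx1, -1.46 for Prdx3 and -2.19 for Prdx5, and the NRF2 genes gave 0.31 for Nfe2l2, -2.1 for Nqo1 and -0.13 for Hmox1. Prdx1, Prdx5 and Nfe2l2 had opposite directions on the 2 slides, and the median of all genes was 0.06 on slide 1 and 0.67 on slide 2.

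The hearts of the RORasg/sg group differed from each other more than the WT hearts did. The SD was larger in RORasg/sg hearts for 10 of 10 genes, as it was for 86.1% of the 27686 genes with a value on every array, and the median SD over genes was 1.07 in RORasg/sg hearts and 0.511 in WT hearts. The ratio of SDs was 7.16 for Nfe2l2 and 5.08 for Cat, and it was 1.54 for Prdx3. Set against the WT range, RORasg/sg 1 had 3 genes above and 5 below, RORasg/sg 2 had 4 above and 2 below, RORasg/sg 3 had 3 above and 4 below, and RORasg/sg 4 had 3 above and 6 below. Of all genes, RORasg/sg 1 had 12.7% above and 42.5% below, while RORasg/sg 2 to 4 had 45.6%, 48.7% and 51.5% above and 17.9%, 19.2% and 20.9% below. For 3 of the 10 genes (Sod2, Cat and Prdx5), RORasg/sg 1 lay on one side of the WT range and RORasg/sg 2 to 4 on the other, a count made after the values were seen, and this was so for 18.8% of all genes.

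Ratios of 2 genes on the same array do not change when each array is scaled by its own factor. Quantile normalization can change them. The pairs below share a compartment or a regulator, were chosen after the values were seen and carry no test. The log2 ratio of Sod2 over Prdx3, the mitochondrial pair, stood at 2.6, 3.98, 4.29 and 4.76 in RORasg/sg hearts 1 to 4 and at 3.09, 2.86, 2.87, 2.7 and 2.79 in WT hearts 1 to 5. RORasg/sg 2 to 4 were above all WT hearts and RORasg/sg 1 was below them. Cat over Prdx5, the pair that meets in peroxisomes, was -1.48, 4.09, 5.01 and 4.89 in RORasg/sg hearts, against 1.79, 1.78, 0.84, 1.96 and 1.47 in WT hearts, and showed the same split. Sod1 over Prdx1, the cytosolic pair, was 3.98, 6.61, 6.97 and 10.39 in RORasg/sg hearts, against 6.1, 5.5, 4.99, 8.31 and 5.46 in WT hearts. WT 4 was the highest WT heart here and lay above RORasg/sg 1 to 3.

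Nqo1 over Nfe2l2, a target over its regulator, was 2.65, 1.38, -1.12 and -0.15 in RORasg/sg hearts, against 2.05, 2.47, 2.6, 0.94 and 2.5 in WT hearts. Hmox1 over Nfe2l2 was -0.78, -4.97, -2.05 and -1.38 in RORasg/sg hearts, against -1.83, -1.88, -1.74, -0.82 and -1.58 in WT hearts. RORasg/sg 3 and 4 were below every WT heart in the first ratio, and RORasg/sg 2 and 3 were below every WT heart in the second. All 5 ratios overlapped between the groups.

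**Figure D4:**
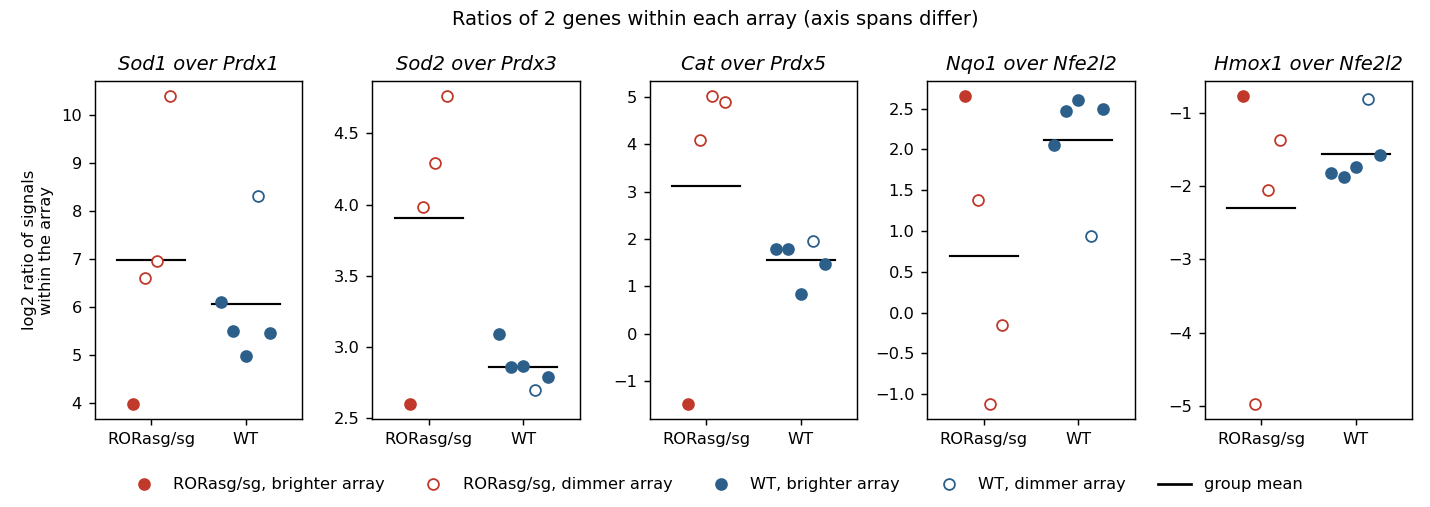
Log2 ratio of 2 genes on the same array (vertical axis) for 5 pairs, with RORasg/sg hearts on the left and WT hearts on the right of each panel; each point is 1 array and lines mark group means. The Sod2 over Prdx3 values of WT hearts lie between 2.7 and 3.09, and those of RORasg/sg hearts lie between 2.6 and 4.76.

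Across the 9 hearts some of the genes varied together, and the following Pearson correlations over 9 arrays that differ in brightness are descriptions. Sod2 went with Cat (r = 0.86) and with Nfe2l2 (r = 0.76), and ran against Prdx5 (r = -0.81). Prdx1 went with Nqo1 (r = 0.81) and with Prdx5 (r = 0.79). Nfe2l2 and its target Nqo1 had r = -0.15, and Nfe2l2 and Hmox1 had r = -0.49. For Cat the most alike gene of the array was Lrrc34 (Pearson r = 0.99), for Prdx1 Lrrc61 (0.99), for Prdx3 Nosip (0.984), for Prdx5 Fam174b (0.99), for Nfe2l2 Pgrmc1 (0.966), for Nqo1 Ppp1r3a (0.992) and for Hmox1 Lyl1 (0.978), while for Sod1, Sod2 and Sod3 it was a transcript without a symbol (0.955, 0.993 and 0.95). High correlations were common: 2127 genes exceeded 0.9 with Sod2 and 1410 with Cat, against 10 with Sod3 and 12 with Sod1.

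The partner genes of the peroxiredoxins were measured too. For the 4 lists that follow, 66.6% of all genes had a higher mean in RORasg/sg hearts, an unadjusted p under 0.05 was reached upward by 4.94% and downward by 6.62%, and the median difference was 0.41. The groups did not overlap in 1.12% of all genes with RORasg/sg hearts higher and in 1.71% with them lower. Of 13 genes of the peroxiredoxin and thioredoxin system, 0 passed, 9 had a higher and 4 a lower mean in RORasg/sg hearts, and their median difference was 0.16. At an unadjusted p under 0.05 there were 2, both lower. Txnip, which encodes the inhibitor that binds thioredoxin, spanned -2.66 to 3.05 in RORasg/sg hearts and 2.52 to 3.67 in WT hearts, with a difference of -2.89 (SE 0.899, limma adjusted p = 0.385). Prdx6, a peroxiredoxin that relies on glutathione, spanned 0.45 to 4.27 in RORasg/sg hearts and 4.58 to 4.85 in WT hearts without overlap, with a difference of -1.72 (SE 0.667, adjusted p = 0.418). Txnrd1, the cytosolic thioredoxin reductase, had a difference of 0.65 (SE 0.411, adjusted p = 0.423). Among the 5 brighter arrays these differences were -0.2 for Txnip, -0.47 for Prdx6 and -0.55 for Txnrd1.

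Of 13 genes that control NRF2, 0 passed, 4 had a higher and 9 a lower mean in RORasg/sg hearts, and the median was -0.55. At an unadjusted p under 0.05 there were 4, all lower. Bach2, a repressor of the BACH family, spanned -6.84 to -1.52 in RORasg/sg hearts and -1.53 to -0.55 in WT hearts, with a difference of -3.11 (SE 0.834, limma adjusted p = 0.375). Mafk, a small MAF partner, differed by -2.26 (SE 0.813, adjusted p = 0.407). Bach1, the repressor at antioxidant response elements, differed by -1.16 (SE 0.477, adjusted p = 0.418), and this was -1.09 among the 5 brighter arrays, where Bach2 had -0.43 and Mafk -0.38. The signal of Bach1 was dim, with -4.91 to -3.68 in RORasg/sg hearts and -4.04 to -2.53 in WT hearts. The lowest RORasg/sg value of Bach2, -6.84, was dimmer than any value of Bach1.

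A list of NRF2 target enzymes and iron handling held 21 genes, of which 19 were measured. Gclm did not reach the level filter and Cbr1 had no matched probe, and Txnrd1 and Srxn1 are also in the thioredoxin list. Whether NRF2 controls each listed gene in heart was not tested. Of the 19, 0 passed, 8 had a higher and 11 a lower mean in RORasg/sg hearts, and the median was -0.31. At an unadjusted p under 0.05 there were 3, all lower. Pgd, an enzyme of the pentose phosphate pathway that makes NADPH, differed by -2.38 (SE 0.76, limma adjusted p = 0.385). Gclc, the catalytic subunit that starts glutathione synthesis, differed by -2.57 (SE 0.962, adjusted p = 0.413). Me1, the cytosolic malic enzyme, differed by -1.21 (SE 0.504, adjusted p = 0.418). Among the 5 brighter arrays they had -0.1 for Pgd, -0.22 for Gclc and -0.28 for Me1.

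Of 18 genes for sources of superoxide and hydrogen peroxide and for copper delivery, 17 were measured, 0 passed, 11 had a higher and 6 a lower mean in RORasg/sg hearts, and the median was 0.23. At an unadjusted p under 0.05, 2 were higher and 1 was lower. Xdh, the xanthine dehydrogenase gene, spanned -2.19 to -0.11 in RORasg/sg hearts and 0.13 to 0.62 in WT hearts without overlap, with a difference of -1.27 (SE 0.483, limma adjusted p = 0.414). Cyba, which encodes the p22phox subunit of NADPH oxidases, differed by 1.16 (SE 0.463, adjusted p = 0.418), and by 1.01 among the 5 brighter arrays. Its signal was dim, with -3.48 to -1.75 in RORasg/sg hearts and -4.41 to -3.52 in WT hearts, by a small margin without overlap. Rac2, the small GTPase of the phagocyte oxidase, differed by 1.17 (SE 0.482, adjusted p = 0.418), and by 0.04 among the 5 brighter arrays. The macrophage markers, 8 of 8 measured and in which Rac2 is not included, summed to 14.1 to 40 times the 75th percentile in RORasg/sg hearts and to 12.5 to 33.5 times in WT hearts, and their part in the Cyba and Rac2 values was not tested.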

How the data were processed

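Per the labels' protocols, 70 ng of total RNA was amplified (NuGEN Ovation Pico WTA) and 5 ug of cDNA was labelled. The deposited intensity is the background-subtracted processed signal of Feature Extraction 12.0.0.7 (design 014868, grid build mm9, per the file headers, and Agilent Feature Extraction 12 per the submitters' processing notes). The deposited value table held the same intensity (largest relative difference 0 over 45018 features), and so shares its scale and direction. From it were computed log2 values minus each array's 75th percentile over 43379 non-control spots. Outlier spots (758) were left out, none was saturated, and spots of a probe were averaged. Probes had to be well above background on 4 or more of the 9 arrays (36404 of 41174 were), and the kept probe with the highest mean stood for its gene (27774 genes). Accessions were matched to symbols through RefSeq's GRCm38.p6 annotation (28223 probes, 19096 symbols). Where no symbol matched, the accession or other systematic name stood for the gene, so the 27774 genes include transcripts without a symbol. The comparison used lmFit and eBayes (trend, two-sided) of limma 3.58.1 in R 4.3.3, with Benjamini-Hochberg adjustment over all genes and a threshold of 0.05, after a check on simulated data. Tables were handled with pandas 2.3.3 and data.table (version 1.17.8), and plotted with matplotlib 3.10.9 (Python 3.11.15).

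The hearts came from separate mice, all arrays share 1 scan day and lie on 3 slides, and precision is limited by how many arrays there are. Named are all 10 genes, Rora, the gene most alike to each, and the 3 genes of each further list with the smallest p. The genes and lists were chosen with earlier results of these data known. Alternatives covered scaling, background, filter, probes, slides, brightness, array weights, the replicate number as a block and leaving out each array.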

Additional observations from a re-analysis of the deposited data

Results flagged for a closer look

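Each of the 10 genes was examined in both groups for an array far from the others of its group, by the gap to the nearest array over the range of the group (Dixon's criterion). Of these 20 sets, 3 had such an array, and chance gives about 1 in 20.

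Hmox1 in RORasg/sg 2 was -1.57, where the other RORasg/sg hearts had 1 to 1.24 (gap over range 0.917). Nqo1 in WT 4 was 3.56, where the other WT hearts had 4.77 to 5.14 (gap over range 0.765). WT 4 is the dimmer WT array. Sod1 in WT 5 was 7.58, where the other WT hearts had 7.32 to 7.36 (gap over range 0.832).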

How the results depend on the processing

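Over 25 alternatives the 10 genes gave 250 differences. Of these, 219 kept their direction and their side of the threshold, and 10 kept their direction and passed the threshold only there. The other 21 turned direction, whether or not they passed. Sod1, Sod3, Prdx3 and Nqo1 kept their direction in all 25. The number of all genes called, 1 over all arrays, was 0 with normexp background, with a filter that asks all arrays to be well above background, with the mean of probes, with the slide as a block, within slide 1, within slide 2 and among the 4 dimmer arrays, 2 with quantile normalization, 3 with no scaling, 1189 among the 5 brighter arrays, 15131 with array weights, and 0 to 10390 with 1 array left out, the highest without RORasg/sg 1. Of the 10 genes, 2 were called among the brighter arrays (Cat and Prdx5, with a lone RORasg/sg heart), 6 with array weights and 0 to 4 with 1 array left out, the 4 (Sod2, Cat, Prdx3 and Prdx5) without RORasg/sg 1. Array weights called 54.5% of all genes and gave 0.51 for Sod2, 1.07 for Cat, -2.28 for Prdx1, -0.89 for Prdx3, -2.06 for Prdx5 and -2.41 for Nqo1. The median difference of the 10 genes, -0.46 over all arrays, was -0.03 among the dimmer arrays, -1.04 with no scaling and 0.06 within slide 1.

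Directions turned as follows, and the cause was not tested. Among the 5 brighter arrays the difference was -0.6 for Sod2, -0.93 for Cat, 0.96 for Prdx1, 2.02 for Prdx5, -0.81 for Nfe2l2 and 0.17 for Hmox1. With brightness as a covariate it was -0.25 for Sod2, 0.55 for Prdx1, 0.55 for Prdx5 and -0.22 for Nfe2l2. Within slide 1 it was 0.36 for Prdx1, 0.89 for Prdx5 and -0.09 for Nfe2l2, and among the dimmer arrays it was 0.13 for Prdx1. With quantile normalization it was -0.17 for Sod2 and -0.09 for Nfe2l2, and with no scaling -0.33 for Sod2 and -0.47 for Nfe2l2. Leaving out 1 array gave -0.12 to 0.41 for Nfe2l2, below 0 without RORasg/sg 2 or 3, and -0.89 to 0.04 for Hmox1. The difference between the 2 Nfe2l2 probes was -0.006 over all probes and with the stricter filter.

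With the replicate number as a block, 9 genes were called, all lower, and 0 of the 10 genes. Same-numbered hearts also shared a slide, as did hearts 1 with 2 and hearts 3 with 4, and the labels give them no other tie. Their deviations from the group means correlated at 0.046, -0.006, -0.331 and 0.392, and RORasg/sg 4 alone was most alike to the WT heart of its number. Signal over background limits Sod3, whose processed signal was 17.6 to 44.6 in RORasg/sg hearts and 17.8 to 36.2 in WT hearts. Bach1 and Cyba of the further lists also gave dim signals. Bach2 (-6.84), Gclc (-4.98) and Mafk (-4.15) did so in their lowest RORasg/sg heart.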
